A study of Drosophila melanogaster with 24 samples.

Results

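The transcripts of sle (slender lobes) and fend (forked end), 2 of the 13873 transcripts measured on every array, are described here in adult Drosophila melanogaster of 2 strains, lol (Lobe-less, the mutant) and w[1118] (the control). They were taken by transcript ID, FBtr0082231 for sle and FBtr0071349 for fend, and not by a rule on their measured values. Earlier results of these data were known when they were chosen. The reference gene table pairs each ID with 1 gene, as a synonym of sle and inside a longer synonym of fend, and it lists 2 RefSeq transcripts for either gene, which the single array row of each does not tell apart.

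The sle gene is known from flies whose mushroom body lobes are thin and late to develop, and its product is a nuclear protein needed for a properly organised nucleolus, the site where ribosomal RNA is made. The mushroom bodies are the paired brain centres for olfactory learning, built from the axon bundles (lobes) of Kenyon cells. The fend gene encodes a membrane protein known from the guidance of motor axons to their target muscles in the embryo.

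By the study's title, Lobe-less is a long noncoding RNA with a part in shaping the mushroom bodies. Flies of both strains grew at 23 °C on food with 3% rice bran and were frozen, sorted by sex, at an adult age of 2 days. RNA came from whole bodies or from sieved heads, 100 of them pooled for each extraction. This gave 8 groups: w[1118] female heads, w[1118] male heads, w[1118] female whole bodies, w[1118] male whole bodies, and the same 4 in lol, each with 3 arrays from separate cultures. Whether different groups shared cultures was not established, and the main fit and the permutation treated all arrays as independent. The labels name the mutant only as lol, with no allele or strain background, so the mutation and other differences between the strains cannot be told apart. A whole body includes its head. No marker gene of brain, fat body, gonad, gut or muscle could be matched to a transcript ID, and the lol transcript itself is not analysed here, so neither the tissue nor the genotype labels were checked with a named gene.

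Array medians lay between 12.1 and 12.25 on the log2 scale of the deposited values, where 1 unit is a doubling. Of the 12 head arrays, 4 stood apart: w[1118] male head replicates 1 and 2, lol male head replicate 1 and lol female head replicate 1. They differed in the median of 214 transcripts that were at least 2 log2 higher in w[1118] female bodies than heads. These transcripts also differed by under 0.5 log2 between the sexes in w[1118] bodies. Their median lay at 10.37 to 10.93 on the 4 arrays, against 8.68 to 9.11 on the other 8 head arrays. The other 8 include the w[1118] female heads used to choose the set, which favours low values there. Values without the 4 arrays that stood apart are given where a call depends on them.

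The sle transcript was a body-high transcript and fend a head-high one, in both sexes and both strains. In the 12 whole body arrays sle lay between 12.94 and 14.14 log2, and in the 12 head arrays between 11.65 and 12.63, so no head array reached the lowest body array, as for 4.7% of all transcripts. For fend the order was the opposite: heads lay between 13.60 and 14.07 and whole bodies between 11.13 and 12.78, with no overlap, as for 11% of all transcripts. In bulk RNA, fewer cells of a type and less RNA per cell cannot be told apart.

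**Figure D1:**
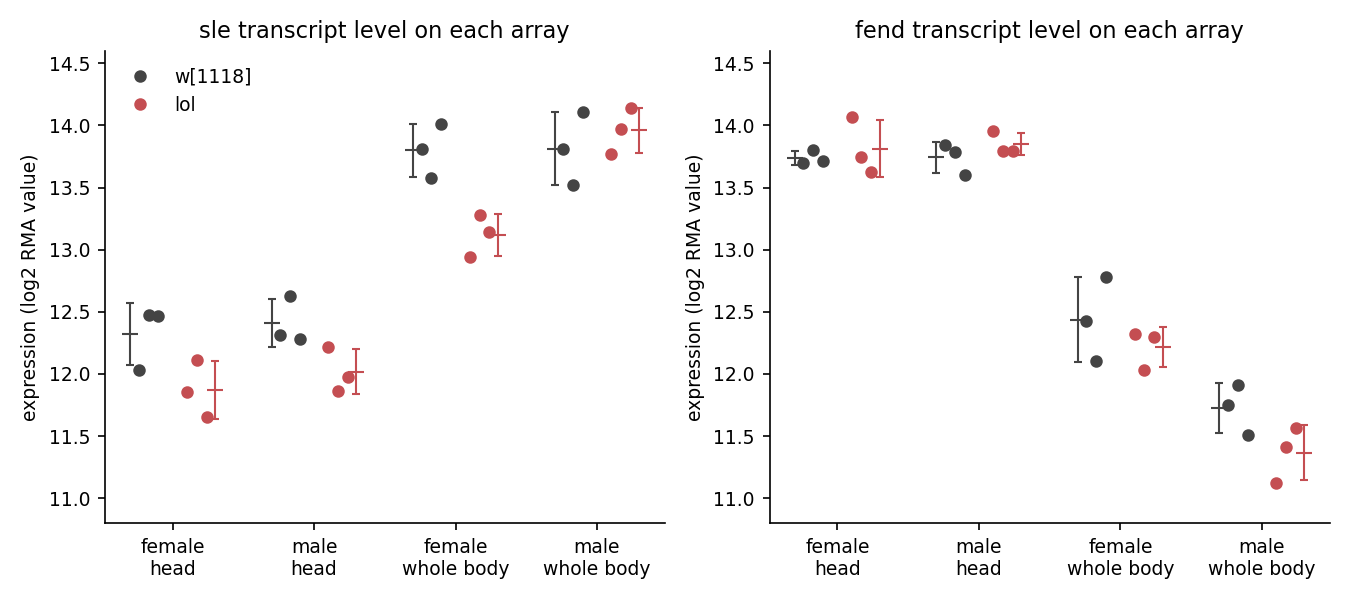
Expression of sle (left) and fend (right) as log2 RMA values on the 24 arrays; each point is 1 array, dark for w[1118] and red for lol, and each bar with a dash is the mean ± SD of 3 arrays. All body arrays of sle lie above all head arrays, all head arrays of fend lie above all body arrays, and lol female bodies stand below the other body groups for sle.

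In w[1118] females, sle was measured at 12.04, 12.47 and 12.47 in heads and at 13.81, 13.58 and 14.01 in whole bodies. Heads were lower by 1.47 ± 0.18 (SE) log2, which is 2.78-fold (adjusted p = 1.64e-06, limma). In w[1118] males the arrays read 12.31, 12.63 and 12.28 in heads and 13.81, 13.52 and 14.11 in bodies. That difference was -1.41 ± 0.18 (SE) log2 (adjusted p = 2.33e-06, limma). The groups did not overlap in either sex, as for 52.1% of all transcripts in females and 57.2% in males.

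In lol females, sle read 11.85, 12.11 and 11.65 in heads and 12.94, 13.28 and 13.14 in bodies. In lol males it read 12.22, 11.86 and 11.97 in heads and 13.77, 13.97 and 14.14 in bodies. Heads were lower than bodies by 2.37-fold in lol females (-1.25 ± 0.18 SE log2, adjusted p = 1.42e-05, limma) and by 3.84-fold in lol males (-1.94 ± 0.18 SE, adjusted p = 2.83e-08). Here too the groups did not overlap, as for 48.7% of all transcripts in lol females and 67.3% in lol males. Of all transcripts, 18.7% were called lower in heads than in bodies in w[1118] females, 23.5% in w[1118] males, 18.2% in lol females and 23.5% in lol males.

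The fend transcript was high in heads at almost the same level in every group. It read 13.70, 13.80 and 13.71 in w[1118] female heads and 13.84, 13.79 and 13.60 in w[1118] male heads. In lol it read 14.07, 13.74 and 13.63 in female heads and 13.95, 13.80 and 13.80 in male heads. All 4 head groups overlapped, with means between 13.74 and 13.85.

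In whole bodies fend was lower and differed between the sexes. Female bodies read 12.42, 12.10 and 12.78 in w[1118] and 12.32, 12.04 and 12.30 in lol. Male bodies read 11.75, 11.91 and 11.51 in w[1118] and 11.13, 11.41 and 11.57 in lol. Every female body array thus stood above every male body array. Within a strain, in either direction, the sexes did not overlap for 55% of all transcripts in w[1118] bodies and 68.5% in lol bodies. The share over both strains together was not computed.

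Heads exceeded bodies for fend by 1.30 ± 0.16 (SE) log2 in w[1118] females (2.46-fold, adjusted p = 2.49e-06, limma) and by 1.59 ± 0.16 in lol females (3.02-fold, adjusted p = 2.72e-07). In males the head excess was 2.02 ± 0.16 (SE) log2 in w[1118] (4.06-fold, adjusted p = 1.13e-08, limma) and 2.48 ± 0.16 in lol (5.58-fold, adjusted p = 5.48e-10). Of all transcripts, 19.7% were called higher in heads in w[1118] females, 31.6% in w[1118] males, 19.1% in lol females and 39.7% in lol males. Without the 4 head arrays that stood apart, the head minus body difference of fend stayed between 1.30 and 2.43 log2 in the 4 comparisons and that of sle between -2.04 and -1.24, and each was called.

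**Figure D2:**
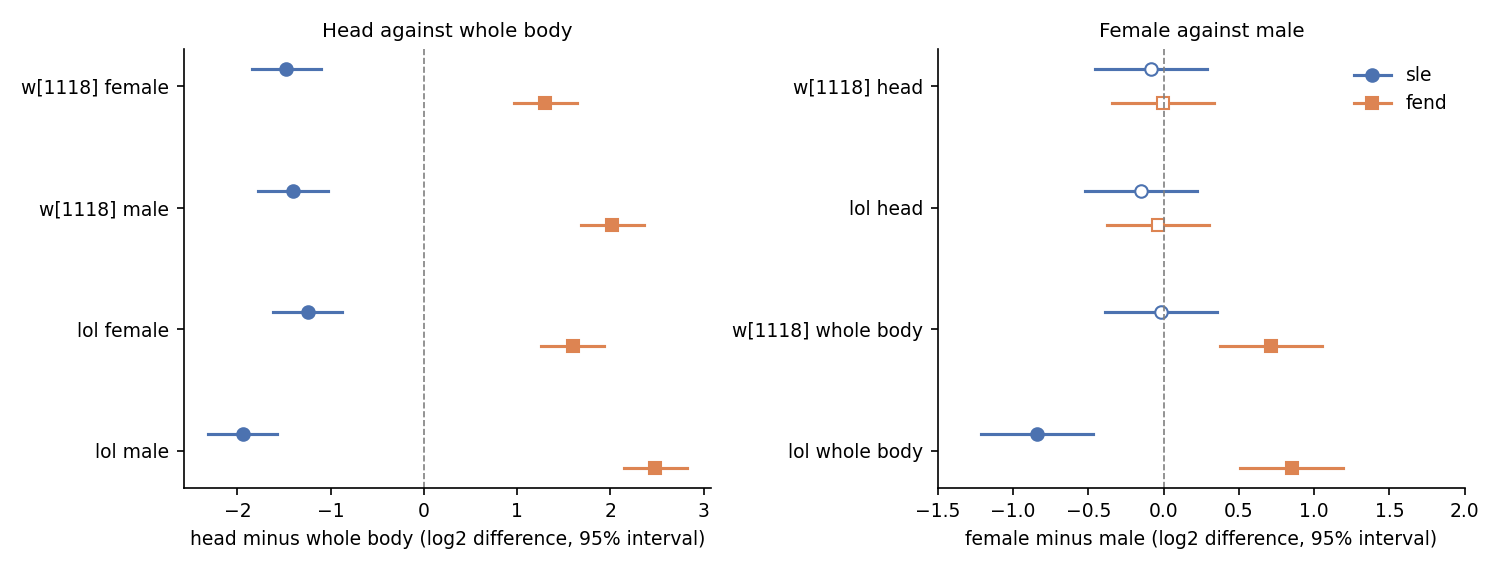
Log2 differences of sle (circles) and fend (squares) between heads and whole bodies (left) and between females and males (right), with unadjusted 95% intervals from the limma model; filled symbols had an adjusted p under 0.05. All 4 tissue differences were negative for sle and positive for fend, and sex differences were called in whole bodies only among the comparisons shown.

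The sexes were compared within each strain and tissue. In heads, sle differed between females and males by -0.08 log2 in w[1118] (95% interval -0.46 to 0.29, adjusted p = 0.923, limma) and by -0.15 in lol (-0.52 to 0.22, adjusted p = 1). The corresponding values of fend were -0.01 (-0.35 to 0.33, adjusted p = 0.994, limma) and -0.04 (-0.38 to 0.30, adjusted p = 1). The groups overlapped in all 4 cases, and only 0.0865% of all transcripts were called between the sexes in heads of either strain.

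In whole bodies fend was higher in females, by 0.71 ± 0.16 (SE) log2 in w[1118] (1.64-fold, adjusted p = 0.0014, limma) and by 0.85 ± 0.16 in lol (1.80-fold, adjusted p = 0.000209). Of all transcripts, 29.9% were called higher in female bodies in w[1118] and 43.4% in lol, and the median difference over all transcripts was 0.26 and 0.38 log2. The female excess of fend thus had the direction of these medians and exceeded them. Taken without sign, the median difference over all transcripts was 0.457 log2 in w[1118] and 0.595 in lol, closer to the values of fend.

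For sle in bodies, a sex difference was called in lol and not in w[1118], and the change between the strains did not pass the test. In w[1118] bodies the means were 13.8 ± 0.22 in females and 13.81 ± 0.29 in males (SD, n = 3), a difference of -0.01 log2 (95% interval -0.39 to 0.36, adjusted p = 0.953, limma). In lol bodies females stood at 13.12 ± 0.17 and males at 13.96 ± 0.18, and all 3 female arrays lay below all 3 male arrays. The sexes did not overlap, in either direction, for 68.5% of all transcripts in lol bodies. The difference there was -0.84 ± 0.18 (SE) log2, 1.79-fold (adjusted p = 0.000519, limma), in a comparison that called 16.1% of transcripts lower in females. Over all transcripts the median sex difference was 0.26 log2 in w[1118] bodies and 0.38 in lol bodies, and both sle values lay below these medians. The change of the sex difference between the strains was -0.83 ± 0.25 (SE) log2 (95% interval -1.36 to -0.30, adjusted p = 0.202, limma), in a test that called 0.252% of transcripts.

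The head-body difference was also compared between the sexes, a value that equals the sex difference in heads minus that in bodies. For fend it was smaller in females, by 0.72 log2 in w[1118] (-0.72 ± 0.23 SE, adjusted p = 0.0297, limma) and by 0.89 in lol (-0.89 ± 0.23, adjusted p = 0.00545), where 21.7% and 38.4% of all transcripts were called. For sle it was smaller in lol females than in lol males (0.70 ± 0.25 SE log2, adjusted p = 0.0357, limma). In w[1118] the same value of sle was -0.07 (95% interval -0.60 to 0.46, adjusted p = 0.881, limma). Over all transcripts the median of this value was -0.20 log2 in w[1118] and -0.34 in lol, and without sign 0.38 and 0.55. The fend values had the direction of these medians, and the sle value in lol had the opposite one. The fend call in w[1118] was lost without the 4 head arrays that stood apart (-0.58, adjusted p = 0.153), in a fit of the 12 compared arrays (0.0656) and when 1 of 7 arrays was left out (w[1118] female body replicates 1 and 3, male body 3, female head 1 and 3, male head 1 and 2, adjusted p from 0.0501 to 0.094). The sle call in lol was lost when 1 of 8 arrays was left out (lol female body replicates 1 and 3, male body 2 and 3, female head 1 and 2, male head 2 and 3, adjusted p from 0.0532 to 0.0939).

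The genotype comparison asks whether either transcript differs between the mutant and the control strain. The average difference passed for sle and not for fend, and whether the 2 transcripts differ in it was not tested. Averaged over the 4 pairs of groups of equal sex and tissue, sle was lower in lol by 0.34 log2 (-0.34 ± 0.09 SE, 1.27-fold, adjusted p = 0.00901, limma). Of all transcripts, 19.6% were called in this comparison, and 10.5% were called lower in lol. An exact two-sided permutation of the genotype labels within the 4 pairs gave p = 0.006 for sle, from 960 of 160000 regroupings, where the smallest possible is 1.25e-05. The average of fend was -0.10 log2 (95% interval -0.27 to 0.07, adjusted p = 0.457, limma), and the exact permutation gave p = 0.266. These are 2 tests, and the p-values are not adjusted over the pair.

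**Figure D3:**
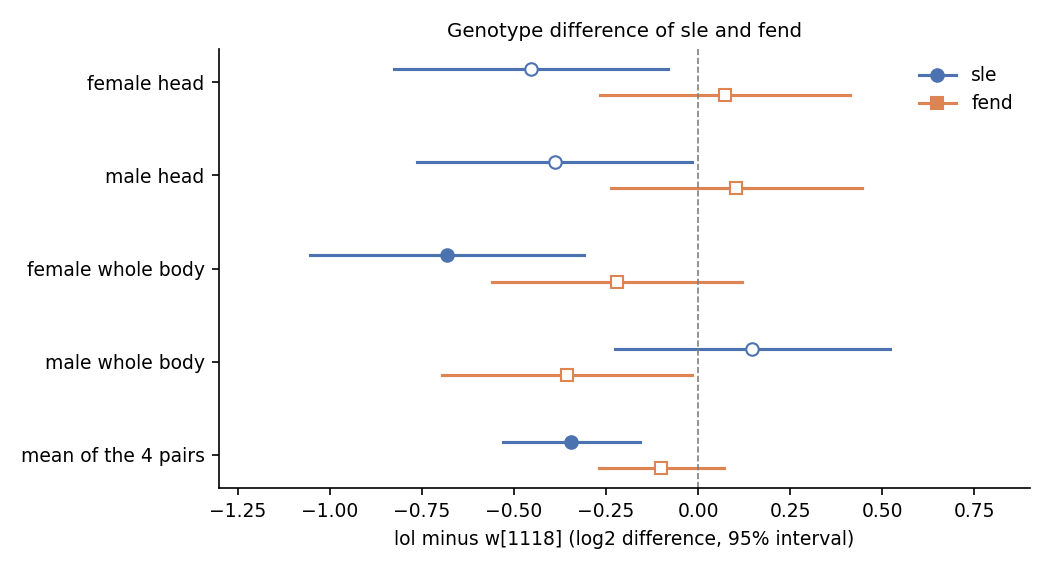
Log2 difference of lol minus w[1118] for sle (circles) and fend (squares) in each sex and tissue and averaged over the 4 pairs, with unadjusted 95% intervals from the limma model; filled symbols had an adjusted p under 0.05 over all transcripts. For sle the female bodies, at -0.68, and the mean of the 4 pairs, at -0.34, passed; no value of fend did.

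The 4 pairs behind the sle average gave values from -0.68 to 0.15 log2. In female whole bodies sle fell from 13.8 to 13.12, by 0.68 log2 or 1.60-fold (-0.68 ± 0.18 SE, adjusted p = 0.0306, limma), with all lol arrays below all w[1118] arrays. Of all transcripts, 4.87% were called there, 2.3% as lower, and the groups of 25.5% did not overlap. The 180 transcripts that were at least 2 log2 higher in female than in male w[1118] bodies, of which sle is not one, had medians of 11.68, 10.98 and 11.98 on the w[1118] female body arrays and 10.27, 10.49 and 10.63 on the lol ones. They were chosen as high on these same w[1118] arrays, which favours a lower lol median, and their part in the sle difference was not tested. The sle call was lost with the 6 compared arrays alone (adjusted p = 0.0699) and without w[1118] female body replicate 1 or 3 or lol female body replicate 1 or 3 (-0.69 to -0.58 log2, adjusted p from 0.0853 to 0.15).

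In heads, sle stood lower in lol in both sexes without passing the test in either. The female difference was -0.45 ± 0.18 (SE) log2 (95% interval -0.83 to -0.08, adjusted p = 0.235, limma), with overlapping groups: the highest lol array, at 12.11, was above the lowest w[1118] array, at 12.04. The male difference was -0.39 ± 0.18 (SE) log2 (-0.76 to -0.02, adjusted p = 0.295, limma), and there all lol arrays, up to 12.22, lay below all w[1118] arrays, from 12.28, as for 15% of all transcripts. Of all transcripts, 3.63% were called in female and 4.68% in male heads.

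The mean of both head pairs, a comparison added after the values were seen, was -0.42 ± 0.13 (SE) log2 (adjusted p = 0.0382, limma), where 9.77% of transcripts were called. The mean of both body pairs, added likewise, was -0.27 ± 0.13 and did not pass (adjusted p = 0.203), where 11.7% were called. The call of the head pairs was lost without the 4 head arrays that stood apart (-0.40, adjusted p = 0.246), in a fit of the 12 head arrays (0.0824), and when 1 of 7 head arrays was left out (w[1118] female replicates 2 and 3, w[1118] male 2, lol female 1 and 3, lol male 2 and 3, adjusted p from 0.075 to 0.106). Among the 3 w[1118] male heads the highest sle value, 12.63, was on replicate 2, the array with the highest median of the 214 body-high transcripts (10.93). Replicate 1, at 10.62 for those transcripts, read 12.31 for sle and replicate 3, at 8.91, read 12.28. Among lol male heads the highest sle value, 12.22, was likewise on the array that stood apart (10.58). Among lol female heads it was not: the array that stood apart (10.37) read 11.85, and replicate 2 (8.95) read 12.11. For fend, which was low in bodies, the highest value of each of these groups was also on an array that stood apart. It read 13.84 on w[1118] male replicate 1, 13.95 on lol male replicate 1 and 14.07 on lol female replicate 1. The part of the 214 body-high transcripts in the values of sle and fend was not tested.

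In male whole bodies sle was not lower in lol. The difference was 0.15 log2 (95% interval -0.22 to 0.52, adjusted p = 0.708, limma), and the 2 groups overlapped over most of their range, from 13.77 to 14.14 in lol and from 13.52 to 14.11 in w[1118]. In this comparison 8.65% of transcripts were called. Tests of whether the genotype difference of sle depends on tissue did not pass in females (0.23 ± 0.25 SE log2, adjusted p = 1, limma) or in males (-0.54 ± 0.25, adjusted p = 0.555), and the dependence on sex in heads was -0.06 ± 0.25 (adjusted p = 1). These tests called 0.375%, 0.432% and 0% of all transcripts.

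For fend no genotype difference passed in any sex or tissue. In female heads it was 0.07 log2 (95% interval -0.27 to 0.41, adjusted p = 0.976, limma) and in male heads 0.10 (-0.24 to 0.44, adjusted p = 0.819). Without the 4 head arrays that stood apart the values were -0.05 (-0.44 to 0.33) in females and 0.19 (-0.33 to 0.71) in males. In female bodies the difference was -0.22 (-0.56 to 0.12, adjusted p = 0.62, limma) and in male bodies -0.36 (-0.70 to -0.02, adjusted p = 0.195). The groups overlapped in all 4 pairs, by a small margin in male bodies, where the highest lol array read 11.57 and the lowest w[1118] array 11.51. The mean of both body pairs, likewise added after the values were seen, was -0.29 ± 0.11 (SE) log2 (adjusted p = 0.122, limma), which passed without w[1118] female body replicate 2 (-0.37, adjusted p = 0.0348). Tests of whether the genotype difference of fend depends on sex or tissue gave adjusted p-values from 0.595 to 1 (limma).

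Ordered by level, the 8 groups fell into 3 steps for both transcripts. For sle the male bodies of lol (13.96) and of w[1118] (13.81) and the female bodies of w[1118] (13.8) overlapped, lol female bodies followed at 13.12 without overlap on either side, and the 4 head groups came last, from 12.41 in w[1118] males over 12.32 in w[1118] females and 12.02 in lol males to 11.87 in lol females, each overlapping the next. For fend the 4 head groups came first and overlapped one another. The female bodies of w[1118] (12.44) and lol (12.22) followed, and then the male bodies of w[1118] (11.72) and lol (11.37). The steps of fend therefore followed tissue and sex, and the middle step of sle was a single group of 1 sex and 1 strain. How many other transcripts show such steps was not counted, so the order is a description only.

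The sums of squares over the 24 arrays put the same pattern in shares. Tissue took 84.1% for sle and 88.2% for fend, against a median of 26% over all transcripts. Genotype took 4.33% for sle and 0.256% for fend (median 1.98%). Sex took 2.71% and 3.73% (median 11.9%), and sex by tissue 0.897% and 4.16% (median 6.54%). The remainder between arrays of 1 group was 4.64% for sle and 2.65% for fend, against a median of 19.4%, with SDs within groups of 0.22 and 0.20 log2 (median over all transcripts 0.25). These shares are a description with no test.

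**Figure D4:**
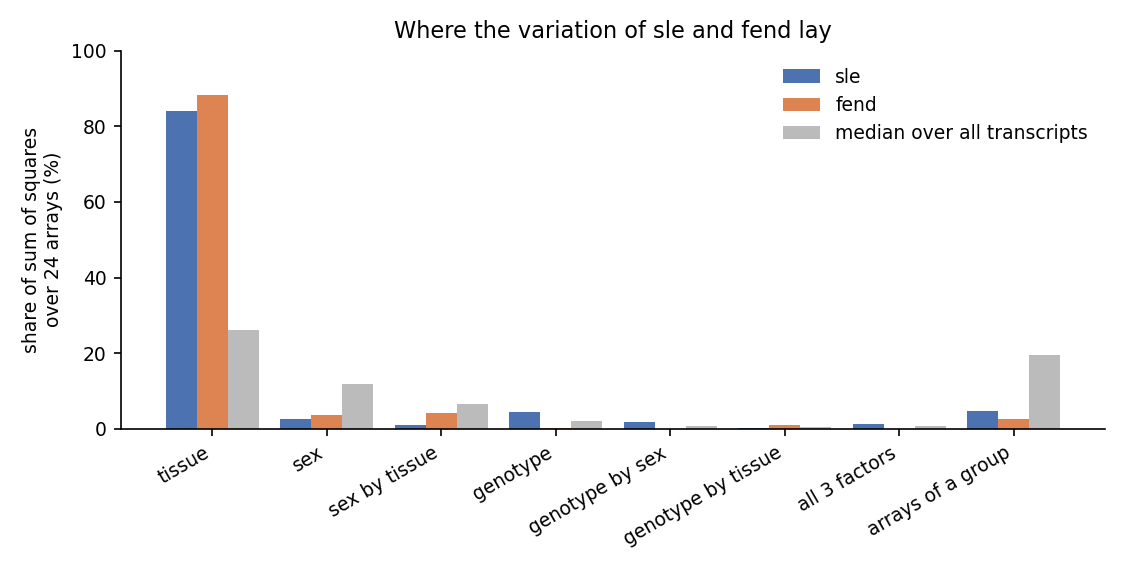
Share of the sum of squares over the 24 arrays, in percent, taken by tissue, sex, genotype, their combinations and the spread between arrays of a group, for sle, for fend and as the median over all 13873 transcripts. Tissue takes 84.1% for sle and 88.2% for fend, and genotype 4.33% and 0.256%.

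Likeness to other transcripts was measured as Pearson's r over the 8 group means, which all come from the same arrays. The transcripts most like sle were FBtr0082233 (r = 0.996) and FBtr0087825 (r = 0.994), and 82 of the other 13872 transcripts (0.591%) had an r over 0.95 with it. Those most like fend were FBtr0081352 (r = 0.999) and FBtr0085638 (r = 0.998), and its pattern was a common one, since 1475 transcripts (10.6%) had an r over 0.95. The reference table pairs none of these 4 IDs with a gene. The r between sle and fend was -0.945 over the 8 group means, and 0.22 between their deviations from the group means over the 24 arrays.

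FBtr0082233 also moved with sle from array to array within groups, with an r of 0.863 between the deviations from the group means over 24 arrays, while FBtr0087825 had an r of 0.289. Its genotype differences lay within 0.11 log2 of those of sle in all 4 pairs: -0.34 in female heads, -0.40 in male heads, -0.67 in female bodies and 0.04 in male bodies. The average over the 4 pairs was -0.34 ± 0.10 (SE) log2. Since these transcripts were picked for following the members over the same group means, their genotype differences are a description, with no test. Whether both rows share probes or a gene is not given in the sources used here. FBtr0087825 had an average of -0.41 ± 0.11 (SE) log2. For the pair most like fend the averages were -0.03 ± 0.08 (SE) log2 for FBtr0081352 and 0.00 ± 0.12 for FBtr0085638.

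**Figure D5:**
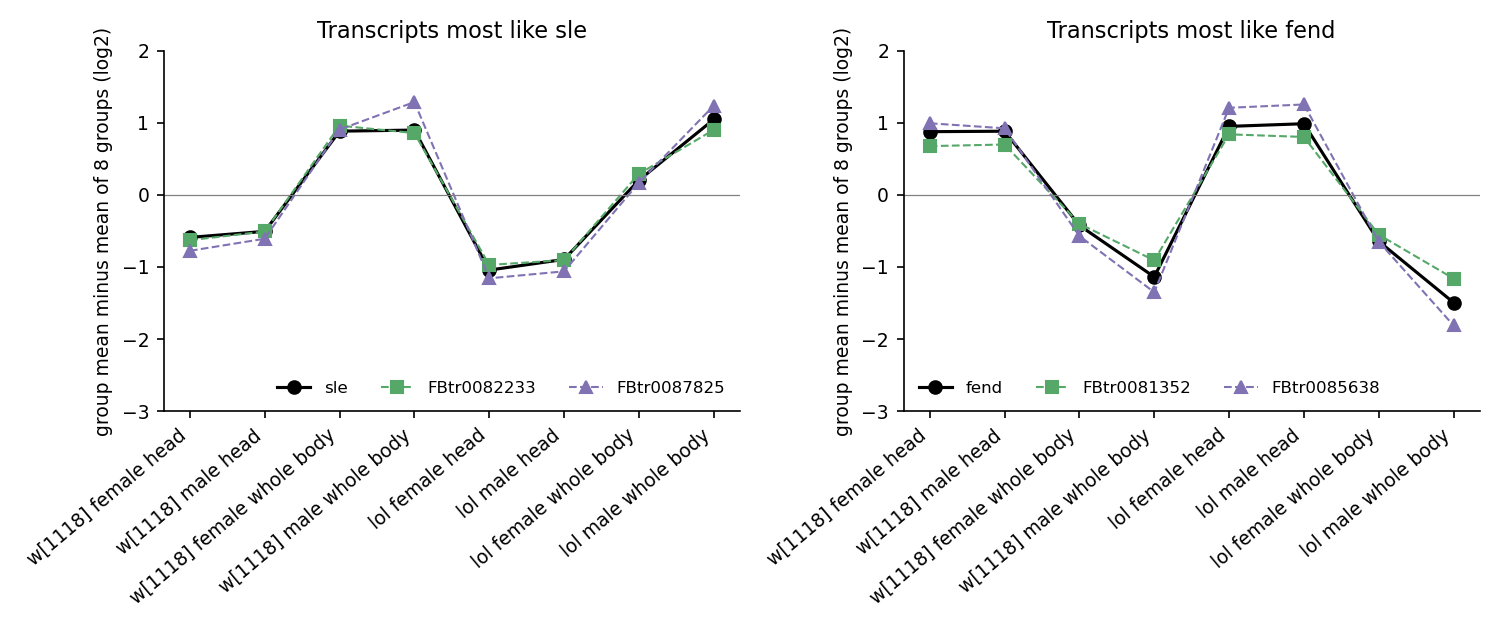
Group means minus the mean of the 8 groups, in log2, for sle with the 2 transcripts most like it (left) and for fend with its 2 (right); lines only join the points of a transcript. FBtr0082233 lies close to sle in all groups, and all 3 transcripts on the right are high in the 4 head groups and lowest in lol male bodies.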

How the data were processed

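The deposited log2 values give 1 expression level per transcript on each of 24 one-colour NimbleGen arrays (Cy3), designed for 16637 FlyBase transcripts with 8 probes each, per the labels. The values were made with RMA, which combines background correction, quantile normalization and a summary of each transcript's probes; RMA is named by the submitters' processing notes; neither its version nor which arrays entered it jointly is stated in the sources used here. The log base was inferred from the range of the values (6.6134 to 15.9201). Of 15595 transcripts, 1722 had no value and were left out. Arrays have no count depth, and their number limits the precision.

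A limma model (version 3.58.1, R 4.3.3) with 8 group means was fitted to all 24 arrays (constant prior), with Benjamini-Hochberg adjustment over 13873 transcripts per comparison and a threshold of 0.05. In simulated data, 200 of 13873 transcripts were given a genotype difference in female bodies and the others none. Changes of 0.7, 1 and 2 log2 were called for 38.8%, 53.7% and 95.5% of the transcripts given them. The share changed in the real data is not known, so these rates need not hold there. Likeness was Pearson's r over group means, the 2 highest being named. The members, lists, doubted arrays and tests were chosen with earlier results of these data known. Of 70 entries on lists for mushroom body development, motor axon guidance and tissue markers, 0 matched an ID, where a gene on several lists counts in each. The reference table holds only 49 such IDs, so this does not tell whether the array measures these genes. Alternatives were an intensity trend, the compared groups alone, renormalization, centring, a filter on dim transcripts, a replicate block and arrays left out. Within each sex and tissue, the deviations of arrays with equal replicate numbers were correlated between the strains. Of these 12 pairs, 9 had an r over 0.1, and r over all 12 ranged from -0.594 to 0.67. Arrays with different numbers were not compared, so whether equal numbers mark a pairing or a shared batch was not tested.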

Additional observations from a re-analysis of the deposited data

Results flagged for a closer look

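The head minus body difference of fend was smaller in females than in males in both strains, by a test of that difference: -0.72 log2 in w[1118] (adjusted p = 0.0297, limma) and -0.89 log2 in lol (adjusted p = 0.00545). For sle the same test passed in lol, with a difference of 0.70 log2 (adjusted p = 0.0357), and not in w[1118] (-0.07, adjusted p = 0.881); whether these values of sle differ between the strains was not tested. Of all transcripts, 38.4% passed this test in lol and 21.7% in w[1118]. The median over all transcripts was -0.34 log2 in lol and -0.20 in w[1118]. The value tested equals the sex difference in heads minus that in bodies. With small head differences, it largely restates the body differences given above.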

How the results depend on the processing

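Of 292 values of sle and fend under 7 alternatives (42 comparisons of the 2 transcripts), 282 kept their direction and their side of the threshold. The intensity trend, quantile normalization again, the filter on dim transcripts and the replicate block changed no call and no direction; with the replicate block the average genotype difference of sle was -0.34 (adjusted p = 0.0103). With the compared groups alone, 3 calls were lost at unchanged values: sle in female bodies (-0.68), sle in both head pairs (-0.42) and the sex dependence of the fend head-body difference in w[1118] (-0.72); that fit has fewer arrays. Without the 4 head arrays that stood apart, calls were lost for sle in both head pairs (-0.40) and for that fend dependence (-0.58); the cause was not tested. This left w[1118] male heads with 1 array, whose spread was taken from the remaining groups. The average genotype difference of sle stayed called there (-0.33, adjusted p = 0.0455). Small differences that were not called turned sign without these arrays, namely sle between the sexes in w[1118] heads (0.043) and its sex dependence of the head-body difference in w[1118] (0.058), and fend between genotypes in female heads (-0.054) and between the sexes in w[1118] heads (0.13, and 0.00047 with median centring).

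With 1 array left out at a time, called values ranged from -0.79 to -0.58 for sle in female bodies, -0.49 to -0.37 for sle in both head pairs, 0.58 to 0.81 for the sex dependence of the sle head-body difference in lol and -0.89 to -0.55 for that of fend in w[1118], and each lost its call for some arrays. The mean of the fend body pairs ranged from -0.37 to -0.20 and passed at -0.37. Uncalled values spanned 0: for sle, the sexes in w[1118] heads (-0.16 to 0.061) and bodies (-0.16 to 0.13), the sex dependence of the genotype difference in heads (-0.21 to 0.047) and of the head-body difference in w[1118] (-0.22 to 0.077); for fend, the genotypes in female heads (-0.054 to 0.17), the sexes in w[1118] heads (-0.077 to 0.042) and lol heads (-0.16 to 0.056), and the sex dependence of the genotype difference in heads (-0.16 to 0.062) and bodies (-0.030 to 0.31). The average genotype difference of sle stayed called for each of the 24 arrays left out (-0.38 to -0.31, adjusted p from 0.0043 to 0.0196).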
